A study of Mus musculus with 4 samples.

Results

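Open chromatin regions that were listed in the second control library and the second Zeb1 knockdown library, but in neither first library, and that lay away from gene ends, are described here. The peaks of all 4 libraries on the 19 autosomes and X were merged where they overlapped or touched, which gave 25263 regions. Of these, 1936 (7.66%) were held by both replicate 2 libraries and by no replicate 1 library. A region was kept if it lay more than 1 kb from both ends of every protein-coding gene, and it is then called distal. This left 1330 members, 8.43% of the 15783 distal regions. The members were chosen by the presence and absence of peaks in these 4 lists, so that presence is a description and carries no test.

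The libraries were made by ATAC-seq, in which a transposase cuts accessible DNA and inserts sequencing adapters, from endothelial cells that FACS isolated from the retina of C57BL/6 mice labelled P16. Mice of the control group are labelled control, and those of the other group Zeb1 knockdown, or CKO in the titles. Each group has 2 libraries of 2000 cells. The driver of the knockdown and the number of animals behind a library are not given in the sources used here, and differences among libraries of a group may be technical. The lists differ in length, with 7608 peaks in control 1, 13672 in control 2, 13689 in knockdown 1 and 19886 in knockdown 2. Read depth is unknown, and where no peak is listed, the reads may simply have been too few. Within their bodies and flanks of 10 kb, 20 of 30 endothelial identity genes held a region in control 1, 28 in control 2, 28 in knockdown 1 and 30 in knockdown 2. At their gene ends, 8 of the 30 had a peak in every library, among them the claudin gene Cldn5, VE-cadherin (Cdh5) and the receptor gene Tie1, and 12 had one in none, among them the adhesion molecule gene Pecam1 and the receptor gene Tek. These 5 examples were chosen with their values known.

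In the retina, rod and cone photoreceptors lie next to a dense vascular bed and far outnumber endothelial cells. Photoreceptor genes are switched on by the homeodomain factor CRX together with NRL, NR2E3, RORB and MEF2D, and CRX and OTX2 bind DNA with the letters TAATCC. Regulatory elements of cell type identity mostly lie in introns and between genes, and open in fewer cell types than promoters do.

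Sequence was read only where a member overlaps an annotated transcript start, as 120 members do, and 5 are shown. All 5 are at genes with roles in the retina. Of the 21 members with TAATCC at such a start, 19 are at genes outside the photoreceptor and retinal factor lists used below. The start at Esrrb, a gene of those lists, had no match and is not shown. Each printed sequence is the 250 bases before a RefSeq start on GRCm38.p6, the assembly of mm10, written 5′ to 3′ on the strand of the gene. Capitals mark TAATCC, or GGATTA where the match is on the other strand. The first 3 hold a match. The last 2 do not and come from genes of photoreceptors.

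Casz1, chr4:148889097-148889346, plus strand: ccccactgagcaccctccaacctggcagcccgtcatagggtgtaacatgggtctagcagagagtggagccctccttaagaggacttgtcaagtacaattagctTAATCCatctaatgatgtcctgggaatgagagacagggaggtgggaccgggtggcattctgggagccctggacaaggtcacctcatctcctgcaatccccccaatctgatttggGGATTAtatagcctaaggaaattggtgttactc

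Sag, chr1:87803430-87803679, plus strand: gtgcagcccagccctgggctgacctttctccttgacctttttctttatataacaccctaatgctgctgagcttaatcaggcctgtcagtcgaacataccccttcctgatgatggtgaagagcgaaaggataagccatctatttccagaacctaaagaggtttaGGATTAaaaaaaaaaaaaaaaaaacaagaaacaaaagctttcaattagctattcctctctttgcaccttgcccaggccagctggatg

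Lrit1, chr14:37054580-37054829, plus strand: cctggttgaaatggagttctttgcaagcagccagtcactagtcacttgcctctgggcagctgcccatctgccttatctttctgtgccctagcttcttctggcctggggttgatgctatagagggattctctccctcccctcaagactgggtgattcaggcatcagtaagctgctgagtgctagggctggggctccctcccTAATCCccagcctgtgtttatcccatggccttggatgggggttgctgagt

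Unc119, chr11:78346460-78346709, plus strand: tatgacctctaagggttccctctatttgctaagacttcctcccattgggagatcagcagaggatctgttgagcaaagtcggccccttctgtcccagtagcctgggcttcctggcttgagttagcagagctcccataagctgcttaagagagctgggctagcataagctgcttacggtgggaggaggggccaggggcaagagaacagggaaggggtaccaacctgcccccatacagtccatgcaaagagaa

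Rd3, chr1:191977120-191977369, plus strand: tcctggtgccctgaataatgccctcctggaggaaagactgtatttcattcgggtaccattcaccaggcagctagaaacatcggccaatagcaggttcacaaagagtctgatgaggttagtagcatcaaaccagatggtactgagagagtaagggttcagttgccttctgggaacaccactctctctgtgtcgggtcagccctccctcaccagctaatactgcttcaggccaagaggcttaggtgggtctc

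Casz1 encodes a zinc-finger factor that acts in retinal progenitors and rods, and its window had 2 matches, 147 and 33 bases before the start. Sag encodes rod arrestin, which ends the light response, and its match lay 87 bases before the start. Lrit1 encodes a leucine-rich repeat protein of photoreceptor synapses, with a match 50 bases before the start. Unc119 encodes a lipid-binding transport protein of photoreceptors and Rd3 an inhibitor of retinal guanylate cyclase. Unc119 and Sag lie within the naming rule as list genes, Casz1 by list, rank and number of members, and Rd3 by number of members. Lrit1 was chosen after its values were seen.

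The members were of ordinary width for distal regions and mostly of middling strength. Merged width ran from 200 to 1506 bp with a median of 355 bp, against 346 bp over all distal regions and 653 bp for the 1299 distal regions in all 4 libraries. Fold enrichment is the authors' ratio of a peak over its own library's background. It ran from 3.31 to 10.3 in control 2, with a median of 4.75, and from 2.81 to 8.64 in knockdown 2, with a median of 4.70. In their own lists the members stood at a median percentile of 63.8 from the top in control 2 and 60.05 in knockdown 2. Of the 1330, 217 (16.3%) were in the top 50% of both lists, 18 in the top 25% of both, and 0 in the top 10% of both. A −log10 q of at least 3 in both lists was reached by 538 (40.5%).

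By the merging rule the 2 peaks of a member overlap or touch, so their centres had to lie close together. Their centres were a median of 44 bp apart, and the farthest pair 628.5 bp. Fold enrichment in control 2 and knockdown 2 had a Spearman rank correlation of 0.265 over the 1330 members, which share the pair of libraries and a list threshold. The nearest peak of control 1 was a median of 57.7 kb away and that of knockdown 1 24.6 kb. In all, 3 members lay within 1 kb of a control 1 peak and 19 within 1 kb of a knockdown 1 peak.

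**Figure D1:**
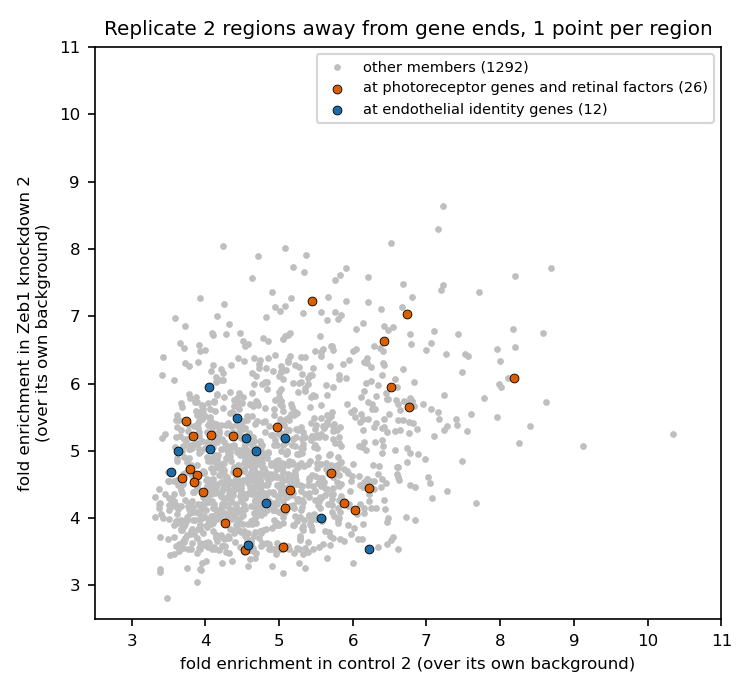
Each point is 1 of the 1330 members, with its fold enrichment in control 2 (x axis) and in Zeb1 knockdown 2 (y axis), each over that library's own background. The 26 members at photoreceptor genes and retinal factors (orange) and the 12 at endothelial identity genes (blue) lie within the cloud of the others (grey). Of the 26, 5 are among the 100 best-ranked of the 1330, and of the 12, 0 are, which was not tested.

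Members lay inside genes somewhat more often than other distal regions. In all, 816 (61.4%) were in the body of a protein-coding gene and 514 between genes. This share was 55.6% over all distal regions, 55.3% for the 1791 distal regions in both knockdown libraries and no control, and 60.3% for the 1779 in all libraries but control 1. The median distance to the nearest gene end was 18.3 kb, and 124 members (9.32%) were more than 100 kb from any. A further 108 (8.12%) lay within 1 kb of an end of a long non-coding RNA gene, a type that the rule did not use.

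Members were found near each other. Another member lay within 50 kb of 312 of them (23.5%), while 15.1% of all distal regions had a member that close, and 20.5% of the distal regions in all libraries but control 1. A gene-end region with the same replicate 2 pattern lay within 50 kb of 101 members (7.59%), against 5.08% of all distal regions. By chromosome, members made up between 4.73% of the distal regions on X and 10.0% on chromosome 4. These shares were not tested, since regions of 1 library are not replicates.

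At the threshold of 1 kb, the nearest members inside it lay 1008 bp from the closest gene end, at Trarg1 with fold enrichments of 6.19 in control 2 and 6.31 in knockdown 2, then 1010 bp at Fam178b and 1017 bp at Pla2g1b. Just outside were regions with the same library pattern 986 bp from the end of Tmem44, with fold enrichments of 5.31 and 3.92, 981 bp at Tpbgl and 976 bp at Rgs10.

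Members were ranked by the weaker of their percentiles in the 2 lists. In the sentences that follow, a pair of fold enrichments gives control 2 first and knockdown 2 second, and control 1 and knockdown 1 had no peak in the region. The best-ranked member lay in Rbm20, a splicing factor gene known from heart muscle, at chr19:53806654-53807138, with fold enrichments of 7.23 and 8.64. The next lay 46905 bp from Tnfaip3, which encodes the inhibitor of NF-kappa-B signalling A20, at 8.69 and 7.72. It was followed by a member in the protein kinase C gene Prkce, at 8.20 and 7.59. The weaker of the Rbm20 percentiles was 14.1.

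The fourth member lay 11685 bp from the scaffold gene Frmpd2, with fold enrichments of 7.20 and 7.39. Those that followed were in the Mediator gene Med13l, at 7.72 and 7.36, and in the microtubule minus-end gene Camsap2, at 7.22 and 7.46. Casz1 was in place 7 (chr4:148889043-148889537), with 6.74 and 7.04, and covers the whole start window printed above. A member 49988 bp from the glutamine transporter gene Slc38a1 had 7.16 and 8.29. The rod arrestin gene Sag was in place 9 (chr1:87803340-87803990), with 6.43 and 6.64, and again covers the whole printed window. The tenth lay 3944 bp from Pink1, the mitochondrial kinase gene, with 7.99 and 6.00. Of these 10, Casz1 and Sag are members of the retinal lists and none is an endothelial list gene.

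By gene, 1050 of 21627 protein-coding genes (4.86%) had at least 1 member within the gene or its flanks of 10 kb, 15% of the 7011 with any distal region there. Most, 948, had 1 member, 81 had 2, 17 had 3, 3 had 4 and 1 had 5. Genes with a member were long, with a median of 48.5 kb against 17.3 kb for all protein-coding genes and 32.4 kb for genes with a distal region but no member. The gene with 5 was Gse1, a gene of the LSD1 corepressor complex, where 2, 14, 6 and 18 distal regions were listed in control 1, control 2, knockdown 1 and knockdown 2. Msi2, a gene for an RNA-binding protein of stem cells, had 4 members among 8 distal regions, with 0, 6, 1 and 7 by library. Ttc28 and Tbc1d1, a Rab GTPase-activating gene of glucose transport, had 4 members each among 12 distal regions.

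Genes with 3 members were, in order of their best rank, Rbm20 (of 6 distal regions), Prkce (of 10), Casz1 (of 8), Ctif (of 13), Frmd4b (of 8) and Rd3 (of 4). Rd3 is 31.8 kb long and had 0, 3, 1 and 4 distal regions in the 4 libraries, so 3 of its 4 regions were members. At Rbm20 the 3 distal regions of control 2 were all members, and the replicate 1 libraries held none. At Prkce, knockdown 1 held 4 distal regions, none of them a member by construction, and control 1 held 0.

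Members were a larger share of the distal regions at genes of photoreceptors than in the genome. Over the lists for rod and cone phototransduction, for the photoreceptor outer segment, cilium and synapse, and for photoreceptor and retinal transcription factors, 26 of 109 distal regions were members (23.9%), against 8.43% of all distal regions and 9.21% of the 10735 at protein-coding genes. Of the 88 genes of these lists in the gene table, 20 (22.7%) had a member, 13 of them (of 58, 22.4%) on the first 2 lists. Among all protein-coding genes this share was 4.86%. Other patterns differed in direction. In the same lists, 6 of their 109 regions (5.50%) were in both knockdown libraries alone, against 11.3% at all protein-coding genes (5.93% of which had such a region), and 7 (6.42%) in all libraries but control 1, against 12.2%. Regions in all 4 libraries numbered 11 (10.1%), against 8.84%, regions in control 2 alone 20 (18.3%), against 10.5%, and regions in knockdown 2 alone 25 (22.9%), against 30.1%. An earlier look at gene ends of these libraries had already shown photoreceptor genes with this pattern, so the share is not separate evidence, and it was not tested against other genes. With peaks of −log10 q of at least 3 the share was 13.5% beside a background of 9.57%, and with lists of equal length it was 10.7% beside 4.03%. With a library left out of the rule, it was 27.8% beside 9.95% (control 1), 57.3% beside 42.6% (control 2), 30.6% beside 20.8% (knockdown 1) and 54.8% beside 26.6% (knockdown 2).

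**Figure D2:**
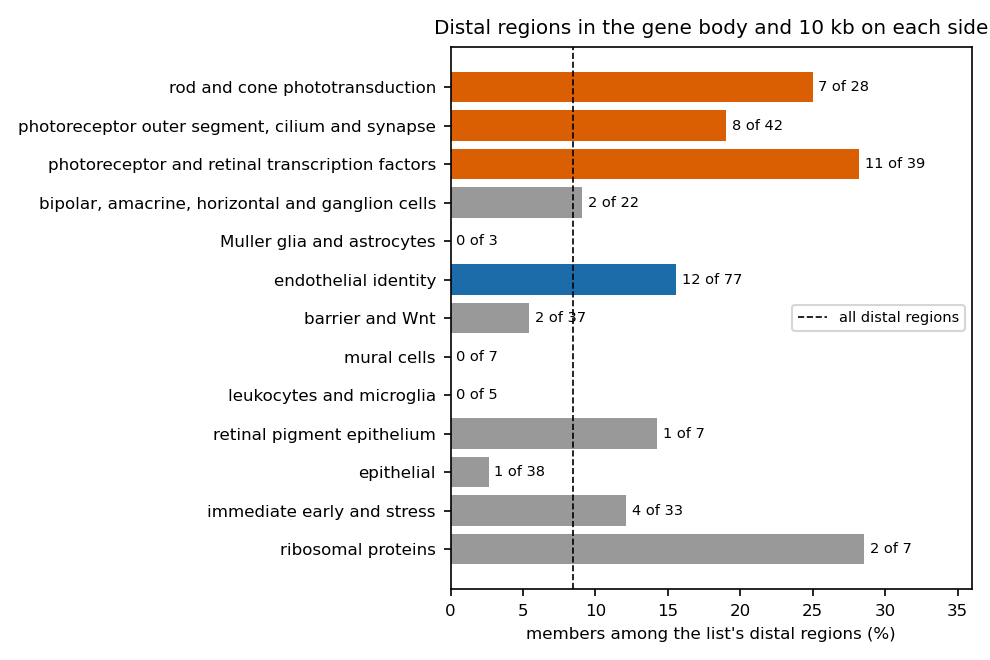
Bars give the members among all distal regions within the genes of a list or their 10 kb flanks, in percent, for 13 gene lists; the numbers beside the bars are members and distal regions, and the dashed line is the 8.43% of all distal regions. The 3 retinal lists (orange) stand at 25%, 19.05% and 28.2%, the endothelial list (blue) at 15.6% and the epithelial list at 2.63%; ribosomal genes reach 28.6% with 7 distal regions.

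Phototransduction genes carried 7 of these members at 6 of 29 genes. The strongest of those described here is the Sag member in place 9. At Sag a second member in the flank (chr1:87848716-87849720) had fold enrichments of 4.27 in control 2 and 3.92 in knockdown 2, so that both distal regions of that gene were members. Neither replicate 1 library had a distal region at Sag.

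Further phototransduction members ranked below the first Sag member. Gnb1, the rod transducin beta gene that many cell types share, had members at 5.08 and 4.16 and at 4.43 and 4.68. Guca1a and Guca1b, the neighbouring genes of the guanylate cyclase activators, shared 1 member at 4.98 and 5.36. At Rgs9bp, the anchor of the transducin shut-off complex, the member had 4.54 and 3.53. The remaining 23 genes of the list, among them Gnat1, the rod transducin alpha gene, had none. Gnat1 had 3 distal regions, of which 2 were in control 2 alone and 1 in knockdown 2 alone.

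Outer segment, cilium and synapse genes carried 8 members at 7 of 29 genes. The highest fold enrichments were at Prom1, a gene of disc formation, at 8.19 in control 2 and 6.09 in knockdown 2 (chr5:44080694-44081061, place 58). The best-ranked member of the list, at Unc119, covers the printed window (chr11:78346429-78346760, place 41), at 6.52 and 5.95. Pdc, the gene of the transducin-binding protein phosducin, had 2 members, at 5.71 and 4.67 and at 5.15 and 4.42, and no other region in any library. Rp1, a gene of the axoneme, had 6.03 and 4.12. Aipl1, a chaperone gene, Tulp1, a transport gene, and Cacna1f, the calcium channel gene of the rod synapse, had members between 3.68 and 4.73 in either list.

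Retinal transcription factor genes carried 11 members at 7 of 30 genes, 6 of them at Casz1 and Esrrb. Esrrb, an orphan nuclear receptor gene expressed in rods, had members at 5.89 and 4.22, at 6.22 and 4.44, and at 5.45 and 7.22. Its other 3 regions were listed in knockdown 2 alone. Casz1 had 2 further members at 4.08 and 5.24 and at 3.89 and 4.64, and knockdown 1 held 2 other distal regions there. Nrl, the gene of the factor that sets rod fate, had 3.73 and 5.45. Its partner gene Nr2e3 had 5.06 and 3.57.

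Neurod1, a basic helix-loop-helix factor gene, had 4.37 and 5.22, Rorb 3.84 and 4.53, and Mef2d 3.84 and 5.23. Crx had 1 distal region, in control 2 alone, and Otx2 had none. Over the 26 members at the retinal lists the median fold enrichment was 5.02 in control 2 and 4.68 in knockdown 2, against 4.75 and 4.70 over all members. Of the 26, 21 were in gene bodies and 5 among the 100 best-ranked of the 1330.

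The libraries differed by replicate number at these genes, with the list lengths beside them. At the 58 photoreceptor genes of the first 2 lists, control 1 held 18 distal regions, control 2 39, knockdown 1 14 and knockdown 2 43. In each group the second library was the higher, and the groups overlapped. The means were 28.5 ± 14.8 in the controls and 28.5 ± 20.5 in the knockdown libraries (SD, n = 2 each), a difference of 0 (two-sided exact permutation test, p = 1, where 2 against 2 cannot go below 0.33). As shares of each library's distal regions these were 0.508%, 0.617%, 0.226% and 0.386%, so that both controls lay above both knockdown libraries (0.562% ± 0.077 and 0.306% ± 0.113, SD, n = 2, exact p = 0.33). At the endothelial genes, the counts were 16, 46, 44 and 61, with control 1 the lowest (31 ± 21.2 and 52.5 ± 12.02, SD, n = 2, exact p = 0.667). Gene-end peaks were present at 7, 28, 12 and 29 of the 58 photoreceptor genes and at 8, 15, 14 and 18 of the 30 endothelial genes.

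**Figure D3:**
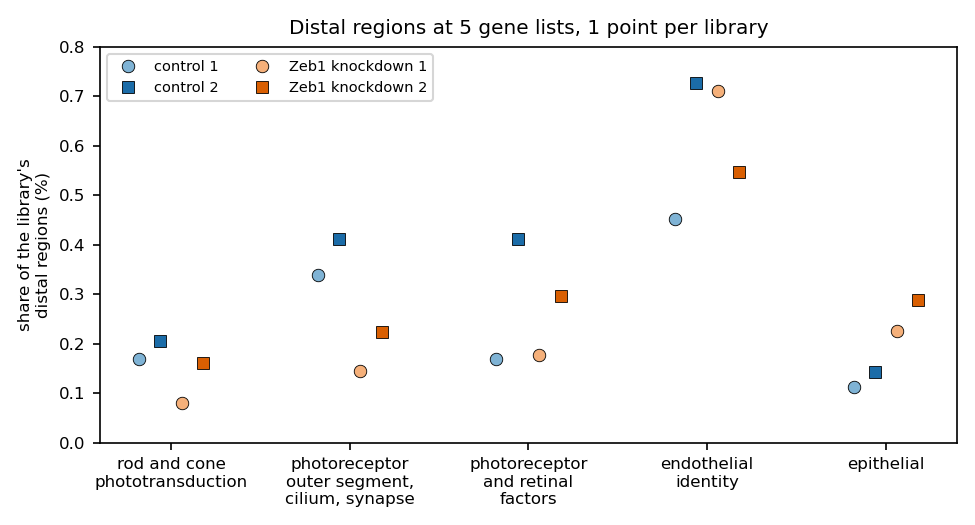
Points give, for each of the 4 libraries, the distal regions at 5 gene lists as a percent of that library's distal regions; circles are replicate 1 and squares replicate 2, blue control and orange Zeb1 knockdown. At the retinal factor genes the squares (0.411% and 0.297%) lie above the circles (0.169% and 0.178%). The photoreceptor lists do not share this order. Control 1 lies above knockdown 2 at phototransduction genes (0.169% and 0.162%) and at outer segment, cilium and synapse genes (0.338% and 0.225%). At the endothelial genes control 1 (0.451%) is the lowest.

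Endothelial genes also had members. Of the 30 identity genes, 10 (33.3%) had a member, against 4.86% of all protein-coding genes. Of their 77 distal regions, 12 were members (15.6%), against 8.43% of all distal regions. With peaks of −log10 q of at least 3 the share of regions was 10.2% beside 9.57%. With lists of equal length it was 2.70%, beside a background of 4.03%. It was 17.1% beside 9.95% without control 1 and 33.8% beside 42.6% without control 2. Without knockdown 1 it was 35.2% beside 20.8%, and without knockdown 2 27.7% beside 26.6%. Podxl, the gene of the surface sialomucin podocalyxin, had 3 members, at 3.63 and 4.99, at 4.06 and 5.94, and at 5.08 and 5.19 in control 2 and knockdown 2, and these were its only distal regions. The gene-end region of Podxl was open in all 4 libraries, at 4.37, 5.36, 4.95 and 8.60 in control 1, control 2, knockdown 1 and knockdown 2.

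Several other endothelial members lay in loci where replicate 1 libraries held regions as well. At Flt1, a VEGF receptor gene, the member had 4.83 and 4.22, while another region of the gene was open in all 4 libraries, at 12.04, 6.11, 12.4 and 6.40. At Eng, the endoglin gene, the member had 4.43 and 5.48, next to a region open in all 4 at 3.57, 5.41, 4.84 and 6.22. Sox18, an endothelial SOX factor gene, had 4.68 and 5.0, Erg and Fli1, of the ETS factors, 4.06 and 5.03 and 5.57 and 4.01, and the von Willebrand factor gene Vwf 4.56 and 5.19. The junction gene Esam had 6.22 and 3.54. Plvap and Mmrn2 also had 1 each, and at Mmrn2 the member was the only region in any library. Esam and Plvap lie outside the naming rule and complete the 10 genes.

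Loci of the 2 kinds were set side by side. Of the 10 endothelial genes with a member, 8 had at least 1 distal region held by a replicate 1 library, and 9 had any region, gene ends included. Of the 20 retinal genes with a member, 5 had such a distal region and 10 any region. The lists differ in density, with 77 distal regions at the 30 endothelial genes and 109 at the 88 retinal genes. The same share was not taken over all 1050 genes with a member, and the difference was not tested. By library, any region was listed at 6, 10, 9 and 10 of the 10 endothelial genes and at 5, 20, 8 and 20 of the 20 retinal genes. The replicate 2 values follow from the rule. The 12 endothelial members had median fold enrichments of 4.57 and 4.996. Of the 12, 0 were among the 100 best-ranked of all 1330 members, a count too small to set them apart from the others.

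**Figure D4:**
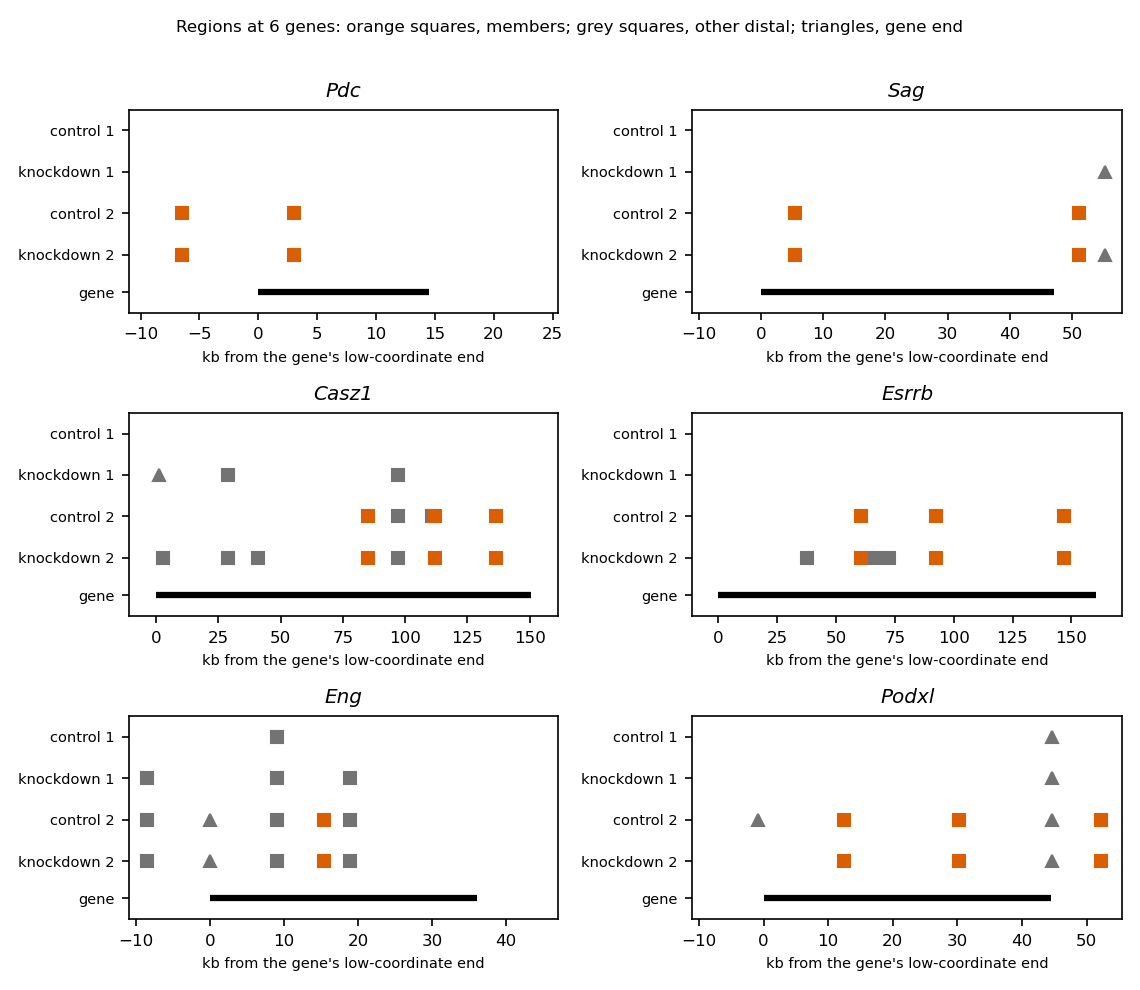
Regions of each library at 4 retinal genes (Pdc, Sag, Casz1, Esrrb) and 2 endothelial genes (Eng, Podxl), by distance in kb from the gene's low-coordinate end; orange squares are members, grey squares other distal regions, triangles gene-end regions and the black bar the gene. The 2 Sag and 3 Esrrb members stand without any distal region in the replicate 1 libraries, and so do the 3 Podxl members. The Eng member lies beside regions held by replicate 1 libraries, and Casz1 has 2 distal regions in knockdown 1.

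Genes of other cell types had few members in all. Bipolar, amacrine, horizontal and ganglion cell genes had members at 2 of 24 genes, 2 of their 22 distal regions (9.09%), near the 8.43% of all distal regions, namely the glycine transporter gene Slc6a9 and the synuclein gene Sncg, which shares its member with Mmrn2. None of the 18 Muller glia and astrocyte genes had a member, with 3 distal regions in all, and the same held for the 16 mural cell genes with 7 and the 18 leukocyte and microglia genes with 5. Distal regions as few as these 3, 7 and 5 say nothing of a lack of members. Pigment epithelium genes had 1 of 7 (14.3%), near Rgr, which is the member at the Lrit1 window, at 4.86 in control 2 and 6.64 in knockdown 2.

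Epithelial genes, which Zeb1 is known to repress, had 1 member among 38 distal regions, in the polarity gene Llgl2 at 3.95 and 3.23. Of those regions, 6 (15.8%) were held by both knockdown libraries alone, against 11.3% at all protein-coding genes. That share was 13.5% at barrier and Wnt genes and 13.0% at endothelial genes. Another 19 (50%) of the epithelial regions were in knockdown 2 alone, the longest list, against 30.1% at all protein-coding genes. These shares were not tested. Barrier and Wnt genes had 2 members of 37, at the transcription factor gene Tcf7l1 and the lipid transfer gene Pltp. Immediate early and stress genes had 4 of 33 (12.1%), at Ier2, Klf4, Fosl2 and Ier5. The stress genes held a region at 20 of 22 genes in control 1 and at all 22 in each other library. Of the 22, 16 had a gene-end peak in every library and 1 had one in none. Ribosomal protein genes had 2 of 7, at Rps6 and Rpl14.

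Sequence was read where members overlap a RefSeq start window, the 250 bases before and 50 after an annotated start. Of the 1330 members, 120 (9.02%) overlap such a window, 76 of protein-coding genes and 44 of long non-coding RNA genes, and 25 cover it whole. The same held for 7.76% of the knockdown-only distal regions, 18.4% of those in all libraries but control 1, and 32.3% of those in all 4. These 120 need not stand for the other members, whose sequence was not used here.

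The letters TAATCC, searched on both strands, were in 21 of the 120 windows (17.5%, 95% Wilson interval 11.7 to 25.3). They were in 74 of the 1231 different windows under other distal regions (6.01%, 4.82 to 7.48), in 5 of 139 under knockdown-only distal regions (3.60%, 1.55 to 8.14) and in 20 of 327 under those in all libraries but control 1 (6.12%, 3.99 to 9.26). Regions in control 2 alone had a share close to that of the members, 13 of 75 (17.3%, 10.4 to 27.4), and those in knockdown 2 alone had 11 of 177 (6.21%). Of all 32619 windows, 7.04% hold these letters. The intervals cover counting error only, and the shares were not tested. With lists of equal length the members' share was 12.3% (6.08 to 23.2), and with the ends of every gene type in the rule 13.3% (7.41 to 22.8). Without knockdown 1 in the rule the share was 8.82%, without control 2 10.5%.

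**Figure D5:**
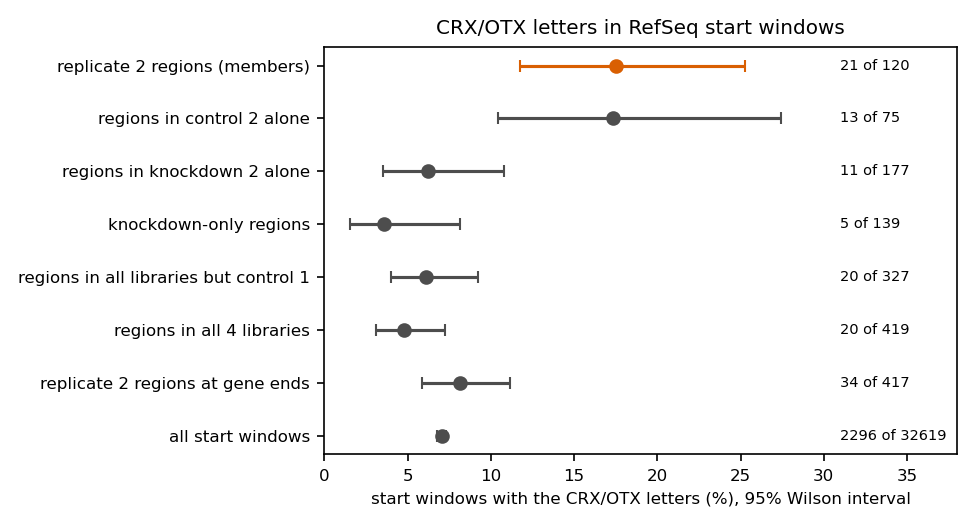
Points give the share of RefSeq start windows with TAATCC (CRX/OTX letters, both strands), in percent, under each kind of region, with 95% Wilson intervals and the counts on the right. Members (orange, 17.5%) and regions in control 2 alone (17.3%) stand above the other kinds, which lie between 3.60% and 8.15%.

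Base composition differed beside this share. Member windows had a median GC of 56.7%, windows of other distal regions 60.7% and all windows 53%. Among windows under 55% GC the letters were in 16 of 46 at members (34.8%, 22.7 to 49.2), in 11.5% under other distal regions and in 9.37% of all windows. At 55% GC or more they were in 5 of 74 at members (6.76%), against 3.78% and 4.03%. Under 55% GC, regions in control 2 alone had them in 19.5% (10.2 to 34.0), replicate 2 gene-end regions in 17.6% and regions in knockdown 2 alone in 14.3%. At 55% GC or more these 3 kinds had 14.7%, 4.85% and 0.935%, so that control 2 alone stood above the members. Of the 23 matches, 21 lay inside the member itself. They were in 15 of the 60 better-ranked member windows and in 6 of the 60 lower-ranked. Of the 120 windows, 4 belong to retinal list genes, and the 116 others held the letters in 19 cases (16.4%). Matching member windows lay on 12 chromosomes.

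The other 12 sets of letters are given in the same order of members, other distal regions and all windows. TGCTGA, part of the NRL and MAF site, was in 23.3%, 16.9% and 19.5%. AGGTCA, read by ROR and other nuclear receptors, was in 22.5%, 14.4% and 16.2%. CACCTG, the E2-box of ZEB and SNAI factors, was in 20.8%, 20.5% and 20.3%, and in 28.8% under knockdown-only distal regions. The GC box GGGCGG was in 50.8%, 59.4% and 35.9%. The MEF2 letters CTATTTT were in 1.67%, 3.25% and 4.23%, and the FOX letters TGTTTAC in 0.833%, 3.33% and 3.67%, which is 2 windows and 1 window of the 120. The ETS letters AGGAAGT were in 6.67%, 9.50% and 9.38%, the SOX letters ACAATG in 6.67%, 9.34% and 12.2%, and the homeodomain letters TAATTA in 2.5%, 2.52% and 5.25%. CAGATG, an E-box of NeuroD-type factors, was in 14.2%, 11.8% and 17.1%, the AP-1 letters TGANTCA in 10%, 8.61% and 7.85%, and the CTCF core in 0.833%, 1.22% and 0.561%. A match describes letters and does not show a bound site.

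Some members lay near microRNA genes, which were looked at after the data were seen. In all, 51 of the 1330 members (3.83%) lay within 25 kb of a hairpin, a share near the 3.65% of all distal regions. Of 1005 hairpins, 56 were that close to a member, 7 of them to 1 of the 100 best-ranked. The neighbours described were chosen for their known roles. The member in place 13 (chr6:30147077-30147506), in the body of Nrf1 with fold enrichments of 6.68 and 7.48, lies 18412 bp from Mir182, 21940 bp from Mir96 and 22162 bp from Mir183, a cluster known from sensory cells including photoreceptors. The member in place 84 (chr13:83744894-83745263), at 6.47 and 5.77, lies 6009 bp from Mir9-2, of a microRNA family of neural cells. Mature sequences are shown to identify these neighbours, from RefSeq on GRCm38.p6, 5′ to 3′, with the seed (bases 2 to 8) in capitals. No 2 of the 4 share a whole seed.

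mmu-miR-182-5p, chr6:30165962-30165986, minus strand: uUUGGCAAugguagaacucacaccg

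mmu-miR-96-5p, chr6:30169506-30169528, minus strand: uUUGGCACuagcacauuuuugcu

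mmu-miR-183-5p, chr6:30169711-30169732, minus strand: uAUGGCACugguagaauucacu

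mmu-miR-9-5p, chr13:83738821-83738843, plus strand: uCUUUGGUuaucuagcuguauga

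Peak lists do not measure these microRNAs, and their levels were not analysed here. Signal from photoreceptors in the replicate 2 libraries and the endothelial cells' own chromatin cannot be told apart from these lists, and their part in the members was not tested.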

How the data were processed

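ATAC-seq peak lists on mm10 were used, 1 per library and not pooled, with groups and replicate numbers from the sample titles. The submitters' processing notes name bedtools 2.26.0, MACS2 2.1.1, SAMtools 1.3, Picard 2.9.2, Bowtie2 2.3.2 and Trimmomatic 0.36; roles, settings and any transposase shift are not given in the sources used here. Every deposited peak carries the authors' score (10 times its −log10 q), fold enrichment (a ratio to the library's own background), −log10 p-value and −log10 q-value. These rank peaks within a list only. Each list's lowest −log10 q lay between 1.01 and 1.03.

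Merging, distances and counts were computed in Python 3.11.15 with pandas 2.3.3, numpy 2.4.6 and scipy 1.17.1, with at least 1 bp as overlap, against the RefSeq gene table of GRCm38.p6 (312 of 313 listed genes matched by symbol). The code was tested on simulated data. The members and the gene lists were chosen with earlier results of these data known. Named genes are those of the 10 best-ranked members, the 10 genes with the most members, and up to 8 per list with a member; all genes of the retinal lists may be named. The planned motif search in the central bases of each region was replaced by RefSeq start windows, since no genome sequence was used here; this and the microRNA distances were chosen after the data were seen. Genotype was compared over libraries by a two-sided exact permutation test. Alternatives were stricter peaks, equal list lengths, other overlaps, merging distances, gene windows and gene types, each library left out, and the replicate number as a block. The values of 1 listed gene are not reported here.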

Additional observations from a re-analysis of the deposited data

How the results depend on the processing

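The number of members, 1330, depended most on the peak lists. It was 851 with a −log10 q of at least 3 and 287 with the 7608 strongest peaks of each library, and from 1390 (without control 1) to 6055 (without control 2) with a library left out, 3116 without knockdown 1 and 2957 without knockdown 2. With equal list lengths the share in gene bodies was 64.8%, and with a library left out 58.0% to 61.3%. Photoreceptor genes with a member, 13 as reported, numbered 4 with equal list lengths, 21 with 50 kb flanks, and 13 to 24 with a library left out (21 without control 2, 24 without knockdown 2). The share of windows with TAATCC ranged from 8.82% (without knockdown 1) to 17.5% (without knockdown 2) with a library left out, and was 10.5% without control 2. The cause of these changes was not tested, but leaving out a library also relaxes the rule that chooses the members. The genotype difference in distal regions at photoreceptor genes, 0 as reported, ran from −14.5 to 14.5 with a library left out, and was −10.5 with equal list lengths (exact p = 0.33). With the replicate number as a block it was 0 (differences of −4 and 4, exact p = 1, where 0.5 is the smallest). Of 128 values, 99 were labelled the same and 29 moved. The limits were a fixed ratio for counts and the main Wilson interval for shares. The genotype difference was 0 as reported and so had no sign to reverse. Its values were labelled by their p-value alone, so the label says nothing of their size or direction. The search in a longer central stretch of each region was not run.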
